A study of Homo sapiens with 33 samples.

Results

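The LRRC8 genes encode the subunits of the volume-regulated anion channel (VRAC). All 5 members of the family, LRRC8A, LRRC8B, LRRC8C, LRRC8D and LRRC8E, were found by symbol among the 29744 genes of the tables, and none was lost to a filter. Their mRNA was followed across 11 high-grade serous ovarian carcinoma (HGSOC) cell lines, each sequenced in 3 replicate libraries, 33 in all. The platinum-sensitive lines were OVCAR3, OVCAR4, PEA1 and PEO1. OVCAR3 ResA, OVCAR3 ResB, OVCAR4 ResA and OVCAR4 ResB were selected in the laboratory by repeated short pulses of cisplatin at rising doses, as independent selections, and were grown without cisplatin afterwards. PEA2, PEO4 and PEO6 are resistant lines from the patients who gave PEA1 and PEO1, and PEO4 and PEO6 are thought to share a clone, so these pairs differ by clinical history and not by a controlled exposure. The sample labels gave only the line and the replicate number, and the role of each line came from the study's text. No library was treated with cisplatin for RNA-seq as far as the labels say, and the culture medium differed between the OVCAR3, the OVCAR4 and the PEA and PEO lines.

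VRAC opens when a cell swells and lets chloride and small organic molecules leave, which brings the volume back down. LRRC8A is the obligatory subunit, and it must assemble with at least 1 of the other subunits for normal channel function. The partner sets what the channel carries: LRRC8D favours uncharged and larger organic solutes such as taurine and is known to carry cisplatin and carboplatin into cells, whereas LRRC8C and LRRC8E are tied to chloride currents and to transport of the cyclic dinucleotide cGAMP. LRRC8B is the least understood partner.

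In NCBI RefSeq on GRCh38.p14, LRRC8B (chr1:89524829-89597861), LRRC8C (chr1:89615824-89719533) and LRRC8D (chr1:89821032-89936611) lie side by side on the plus strand of chromosome 1. LRRC8A lies at chr9:128882133-128918039 and LRRC8E at chr19:7888510-7902016, both also on the plus strand. The span of LRRC8A overlaps KYAT1 on the opposite strand (listed as CCBL1, at most 8.23 TPM), and whether the counting used strand was not stated, so reads shared by both could not be told apart. The sequences just before the start sites of LRRC8A and LRRC8D are shown because these were the subunits whose levels moved in opposite directions in PEA2. They run 5′ to 3′ to the last base before the RefSeq start, with 90 bases for LRRC8A (chr9:128882043-128882132) and 130 for LRRC8D (chr1:89820902-89821031), both plus strand of GRCh38.p14, and capitals mark the matches to the motifs searched.
LRRC8A: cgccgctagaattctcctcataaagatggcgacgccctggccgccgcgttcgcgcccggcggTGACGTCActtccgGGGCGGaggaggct
LRRC8D: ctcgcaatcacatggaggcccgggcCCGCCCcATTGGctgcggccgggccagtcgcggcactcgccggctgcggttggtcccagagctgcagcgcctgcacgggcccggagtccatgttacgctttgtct

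The motifs were searched on both strands in the 250 bases before the start that the RefSeq promoter table gives for each member. For LRRC8C this window (chr1:89632870-89633119) lies inside the span of the gene, so its motifs and base content describe that window and not the bases before the first base of the gene. A cyclic AMP response element (TGACGTCA) was found 28 bases before the start of LRRC8A and in no other member, and 1.65% of 35116 RefSeq promoters held one. GC boxes (GGGCGG) were found in all 5 members (2 in LRRC8A, 1 in LRRC8B, 4 in LRRC8C, 1 in LRRC8D and 3 in LRRC8E) and in 42.6% of all promoters. A CCAAT box was found only in LRRC8D, 98 bases before its start and next to its GC box, and in 32.0% of all promoters. No member held an E-box (CACGTG), which 6.34% of promoters held. None held the motif TATAAA found in 10.7% of promoters. None held the core TGGAAA that NFAT5 binds, found in 18.01%. The G and C content of the members ran from 66.8% in LRRC8B to 80.8% in LRRC8C, against a median of 58% over all promoters. These matches describe the letters of the reference and not binding in these cells.

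Levels are given in TPM (transcripts scaled to a fixed library sum), which divide counts by gene length and so allow the subunits to be compared with each other. LRRC8D was the most abundant subunit in 30 of 33 libraries, with a median of 58.6 TPM and a range of 28.1 to 89.2 TPM. LRRC8A followed with a median of 16.7 TPM (5.94 to 42.6), and was the most abundant subunit in the 3 PEA2 libraries. LRRC8B had a median of 11.4 TPM (5.34 to 27.3) and lay above LRRC8E in 33 of 33 libraries. LRRC8E had a median of 7.52 TPM (4.54 to 14.6). LRRC8C was the least abundant subunit in all 33 libraries, at 0.412 to 6.60 TPM, and rested on 51 to 762 counts per library where LRRC8D rested on 1523 to 4590.

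**Figure D1:**
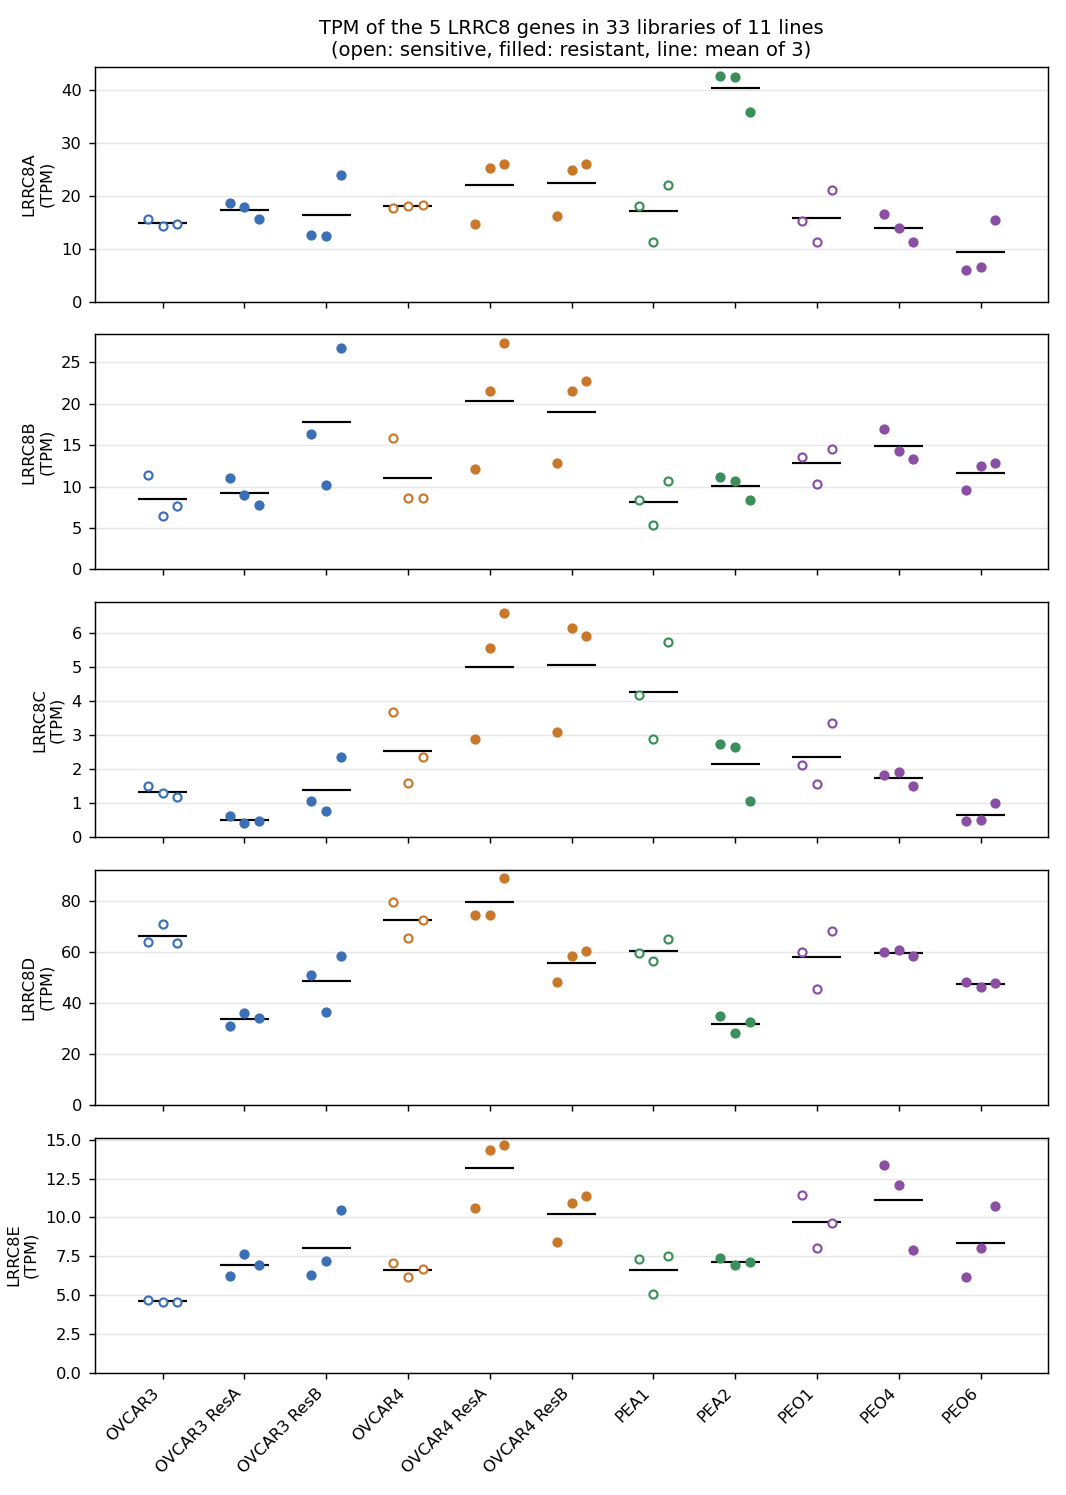
TPM of each LRRC8 gene (y axis, linear, from 0, own scale per panel) in each library of the 11 lines (x axis), coloured by family, with open points for sensitive and filled points for resistant lines and a black line at the mean of 3 libraries. The PEA2 points for LRRC8A (35.9 to 42.6 TPM) sit above all others, and the OVCAR3 ResA and PEA2 points for LRRC8D (28.1 to 36.0 TPM) sit below those of the other lines.

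When the 11 lines were ordered by mean level, most neighbours overlapped in their libraries. For LRRC8B no 2 neighbours were apart, from 20.3 ± 7.64 TPM in OVCAR4 ResA (SD, n = 3, as for all levels) down to 8.14 ± 2.69 TPM in PEA1. For LRRC8A only PEA2 stood apart, and the other 10 lines ran without a gap from 22.4 ± 5.43 TPM in OVCAR4 ResB to 9.34 ± 5.32 TPM in PEO6. LRRC8D ran from 79.4 ± 8.44 TPM in OVCAR4 ResA to 31.8 ± 3.35 TPM in PEA2, with a single gap that set OVCAR3 ResA and PEA2 below the rest. LRRC8C had the widest spread, 10.1-fold between OVCAR4 ResB (5.05 ± 1.71 TPM) and OVCAR3 ResA (0.499 ± 0.1004 TPM), with 1 gap among 10 neighbours. LRRC8E ran from 13.2 ± 2.27 TPM in OVCAR4 ResA to 4.60 ± 0.0847 TPM in OVCAR3, the line below the single gap. Replicates agreed best for LRRC8D, with a median coefficient of variation of 9.92% over the lines, and least for LRRC8C, with 38.3%.

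The summed TPM of the 5 genes ran from 67.7 ± 3.04 in OVCAR3 ResA to 140.0 ± 24.4 in OVCAR4 ResA. LRRC8D made up 69.2 ± 3.42% of this sum in OVCAR3, 65.5 ± 1.32% in OVCAR4, 63.1 ± 5.77% in PEA1 and 58.7 ± 0.450% in PEO1. Its share was 49.7 ± 3.38% in OVCAR3 ResA, 53.6 ± 5.26% in OVCAR3 ResB, 49.96 ± 3.78% in OVCAR4 ResB and 34.8 ± 3.66% in PEA2, and the libraries of each of these lines lay below those of the sensitive line. In OVCAR4 ResA (57.4 ± 6.53%), PEO4 (59.1 ± 3.99%) and PEO6 (61.8 ± 7.10%) the share overlapped that of the sensitive line.

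**Figure D2:**
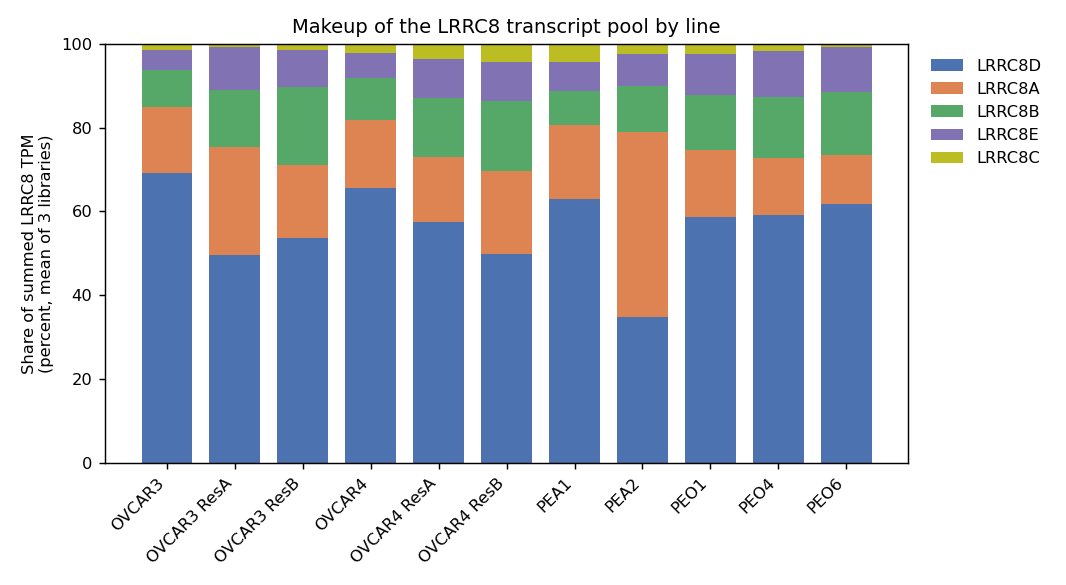
Share of each subunit in the summed LRRC8 TPM (y axis, percent, mean of 3 libraries, stacked to 100) in the 11 lines (x axis). LRRC8D takes the largest block in 10 lines, and in PEA2 the LRRC8A block (44.1%) is larger than the LRRC8D block (34.8%).

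To ask whether subunit mRNA differed with platinum resistance, each resistant line was set against its sensitive relative. DESeq2 was run over all genes, and a gene was called at a Benjamini-Hochberg adjusted p-value under 0.05. Of 35 tests (5 genes in 7 pairs), 9 were called, 2 higher and 7 lower in the resistant line. LRRC8D was called lower in 3 pairs, LRRC8C lower in 3, LRRC8A higher in 1 and lower in 1, LRRC8E higher in 1 and LRRC8B in none. The share of all tested genes called ran from 7.67% to 47% between pairs, so that the number of LRRC8 calls was not set apart from that of other genes. TPM ranges of both lines did not overlap in 12 of the 35 tests. They were apart for 3 of 5 members against 41% of all genes with a mean of at least 1 TPM in OVCAR3 ResA, and for 2 against 21.6% in OVCAR3 ResB. The counts were 1 member against 36.4% of genes in OVCAR4 ResA, 2 against 40.4% in OVCAR4 ResB, 3 against 56.6% in PEA2, 0 against 40.1% in PEO4 and 1 against 43.7% in PEO6. Pairs within the OVCAR3, OVCAR4 and PEO families shared the libraries of their sensitive line and are not independent of each other.

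**Figure D3:**
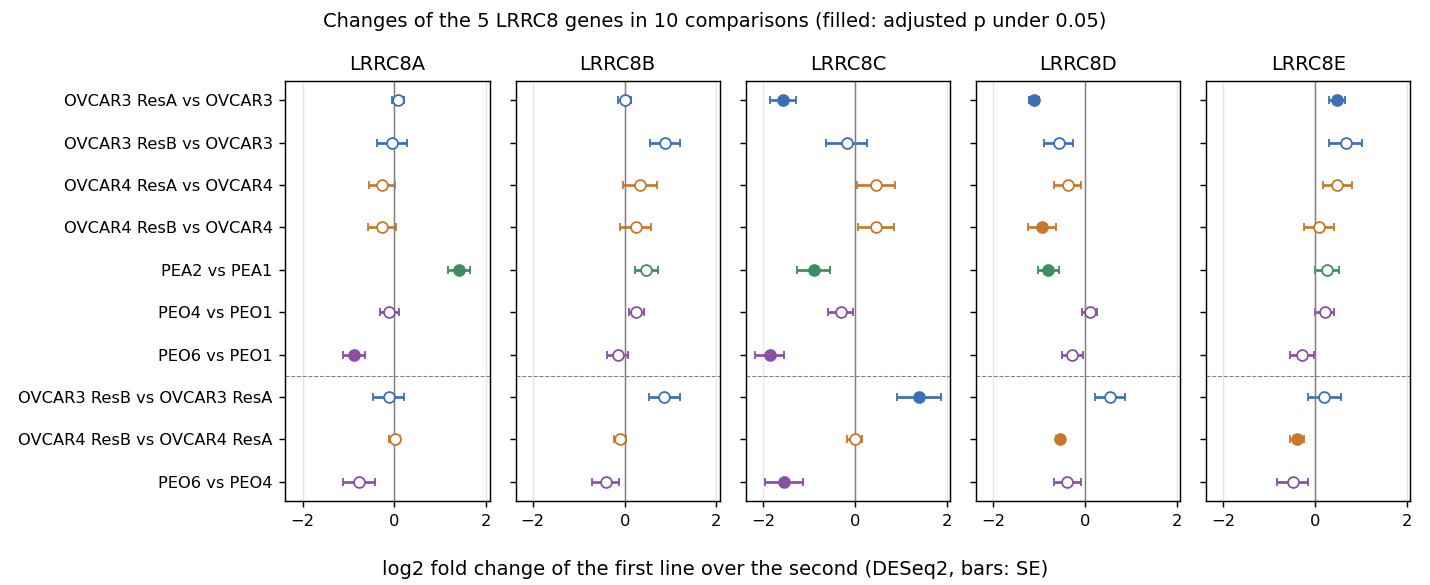
Log2 fold change of each LRRC8 gene (x axis, DESeq2, bars are standard errors) in 7 resistant against sensitive pairs and, below the dashed line, 3 comparisons between resistant lines (y axis), coloured by family, with filled points for adjusted p-values under 0.05. The filled points for LRRC8D all lie left of 0 and none is filled for LRRC8B, and LRRC8A is filled right of 0 in PEA2 (1.40) and left of 0 in PEO6 (-0.88).

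PEA2 differed most in the makeup of the LRRC8 mRNA. The subunit makeup of the channel itself was not measured. LRRC8A, the obligatory subunit, was at 18.1, 11.4 and 22.0 TPM in PEA1 and at 42.6, 42.5 and 35.9 TPM in PEA2. Every PEA2 library lay above every PEA1 library, and above the libraries of all other lines. DESeq2 gave a log2 fold change of 1.40 ± 0.24 (SE), or 2.65-fold, with an adjusted p of 4.16e-08. It remained called under all 12 alternatives, with adjusted p-values of at most 0.0383 (limma on TPM without a filter).

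LRRC8D, the partner that carries platinum drugs, moved the other way in the same pair. Its level was 59.5, 56.5 and 65.1 TPM in PEA1 and 34.7, 28.1 and 32.5 TPM in PEA2, again with no overlap. The log2 fold change was -0.80 ± 0.23, 1.74-fold lower, with an adjusted p of 0.00178 by DESeq2, which was 0.0765 without replicate 1. LRRC8C was at 4.18, 2.90 and 5.73 TPM in PEA1 and 2.73, 2.66 and 1.07 TPM in PEA2, a log2 fold change of -0.89 ± 0.36 with an adjusted p of 0.0287 by DESeq2. The call was kept in 7 of 12 alternatives. It was lost without replicate 3 (log2 fold change -0.35, adjusted p 0.425 by DESeq2), without replicate 1 (0.135 by DESeq2) and in all 3 limma fits on TPM (0.0917 to 0.232). LRRC8B (log2 fold change 0.48 ± 0.26) and LRRC8E (0.26 ± 0.26) were not called, although LRRC8B had an adjusted p of 0.0172 by DESeq2 without replicate 3. In this pair 47% of all tested genes were called, 23.3% higher and 23.8% lower.

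The makeup of PEA1 and PEA2 differed in cell type markers too. The 8 epithelial markers (PAX8, WT1, MUC16, EPCAM, KRT7, KRT8, KRT18 and KRT19) summed to 403.5 to 445.6 TPM in PEA1 and 4017 to 4321 TPM in PEA2, with EPCAM at 14.005 ± 1.205 and 574.7 ± 36.5 TPM. MUC16 and the 4 keratins were higher in PEA2 too. PAX8 (74.9 ± 12.7 and 61.7 ± 8.68 TPM) and WT1 (2.32 ± 0.222 and 2.25 ± 0.370 TPM) were not higher. The 3 fibroblast markers summed to 66.0 to 105.7 TPM in PEA1, nearly all of it COL1A1, and to 0.606 to 1.11 TPM in PEA2, where DCN and LUM were under 0.1 TPM in all libraries of both lines. The 3 leukocyte markers summed to 10.1 to 23.2 TPM in PEA1 and 52.0 to 54.7 TPM in PEA2, mostly CD68, with PTPRC at 0 in PEA1 and 3.30 ± 0.245 TPM in PEA2. The 3 endothelial markers summed to 0.0132 to 0.109 TPM in PEA1 and 5.68 to 8.76 TPM in PEA2. Nearly all of the PEA2 sum was CDH5 (7.02 ± 1.52 TPM), with PECAM1 at 0.287 ± 0.0458 TPM and VWF at 0.0649 ± 0.0164 TPM. The part of these differences in the LRRC8 changes was not tested, and in bulk RNA fewer cells of a type and less RNA per cell cannot be told apart.

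In OVCAR3 ResA the chromosome 1 genes LRRC8C and LRRC8D were lower and LRRC8E was higher than in the parental line. LRRC8D was at 64.0, 70.8 and 63.5 TPM in OVCAR3 and 31.0, 36.0 and 34.0 TPM in OVCAR3 ResA. The highest resistant library lay below the lowest sensitive one, and the log2 fold change was -1.12 ± 0.11, 2.17-fold lower, with an adjusted p of 8.22e-24 by DESeq2. LRRC8C fell from 1.51, 1.29 and 1.19 TPM to 0.609, 0.412 and 0.476 TPM, a log2 fold change of -1.57 ± 0.28, 2.97-fold lower, with an adjusted p of 2.36e-07 by DESeq2. Both were called under every alternative that could be fitted, 12 for LRRC8D and 11 for LRRC8C.

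LRRC8E was higher in OVCAR3 ResA, at 6.20, 7.66 and 6.96 TPM against 4.69, 4.56 and 4.54 TPM in OVCAR3. The log2 fold change was 0.47 ± 0.17 with an adjusted p of 0.0185 by DESeq2, and the call was lost when any replicate was left out, with adjusted p-values of 0.147, 0.197 and 0.207 by DESeq2. The log2 fold changes in these fits were 0.53, 0.44 and 0.46. LRRC8A (14.4 to 15.7 TPM in OVCAR3, 15.6 to 18.7 TPM in OVCAR3 ResA, log2 fold change 0.08 ± 0.12) and LRRC8B (0.00 ± 0.13) were not called. The share of all genes called in this pair was 44.9%, with 22% higher and 22.9% lower. Markers moved in this pair as well. The 8 epithelial markers summed to 5996 to 8019 TPM in OVCAR3 and 3599 to 4869 TPM in OVCAR3 ResA, but they did not move together. KRT8 was at 2441 ± 182.8 and 731.6 ± 77.8 TPM, KRT18 at 2424 ± 701.9 and 379.1 ± 134.9 TPM and WT1 at 60.3 ± 2.91 and 2.09 ± 0.459 TPM. PAX8 and MUC16 were lower too. KRT19 went the other way, at 602.5 ± 70.4 and 1446 ± 319.5 TPM, as did KRT7, at 715.1 ± 61.0 and 935.8 ± 132.5 TPM. EPCAM was level, at 551.2 ± 56.8 and 547.9 ± 81.7 TPM. The fibroblast markers summed to 5.30 to 9.06 and 9.26 to 15.0 TPM, the leukocyte markers to 1.29 to 1.97 and 1.93 to 2.66 TPM, and the endothelial markers to 0.239 to 0.546 and 0.134 to 0.252 TPM. Their part in the LRRC8 changes was not tested.

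OVCAR3 ResB, selected from the same parent, had no LRRC8 call, where 7.67% of all genes were called, 4.1% higher and 3.57% lower. By DESeq2 and by edgeR 1 of 5 members had an unadjusted p under 0.05 in this pair. LRRC8D was at 51.0, 36.5 and 58.6 TPM, below all OVCAR3 libraries, with a log2 fold change of -0.57 ± 0.32. LRRC8B was at 16.3, 10.2 and 26.7 TPM against 11.4, 6.48 and 7.65 TPM, a log2 fold change of 0.87 ± 0.33 with an adjusted p of 0.0886 by DESeq2, or 0.0468 without the replicate block. The third OVCAR3 ResB library was the highest of its line in TPM for all 5 genes, but in counts normalised by DESeq2 it was the lowest for LRRC8D (2272 against 2610 and 2350) and the second for LRRC8E. Its share of mitochondrial rRNA, 1.12% of counts, was the lowest of the 33 libraries against 5.97% and 8.88% in the other OVCAR3 ResB libraries. With that share as a covariate in place of the block, LRRC8B, LRRC8D and LRRC8E had adjusted p-values of 0.00046, 0.00874 and 0.0244 by DESeq2.

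In OVCAR4 ResB, LRRC8D was the only member called, where 17.9% of all genes were, 9.09% higher and 8.77% lower. It was at 79.7, 65.3 and 72.6 TPM in OVCAR4 and 48.2, 58.4 and 60.3 TPM in OVCAR4 ResB, with no overlap. The log2 fold change was -0.93 ± 0.30, 1.91-fold lower, with an adjusted p of 0.0141 by DESeq2. The call was lost with edgeR (0.124), without replicate 2 (0.403 by DESeq2), without replicate 3 (0.541 by DESeq2) and in all 3 limma fits on TPM, where the log2 difference was -0.38 to -0.39. The epithelial marker sum overlapped between the lines (2625 to 3113 TPM in OVCAR4, 2285 to 2986 TPM in OVCAR4 ResB), but single markers did not move together. KRT19 (278.1 ± 16.6 and 53.2 ± 4.35 TPM), MUC16 (11.9 ± 1.45 and 6.35 ± 1.83 TPM) and EPCAM (664.1 ± 40.7 and 529.9 ± 39.5 TPM) were lower in OVCAR4 ResB without overlap. PAX8 was higher (48.9 ± 4.35 and 74.5 ± 2.99 TPM), and WT1, KRT7, KRT8 and KRT18 overlapped. The leukocyte markers summed to 2.27 to 2.74 and 4.62 to 11.3 TPM, the fibroblast markers to 3.65 to 4.78 and 4.35 to 6.09 TPM and the endothelial markers to 0.12498 to 0.201 and 0.480 to 1.74 TPM. The part of these markers in the result was not tested.

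OVCAR4 ResA had no LRRC8 call, where 11.9% of all genes were called (6.68% higher, 5.22% lower), and no member had an unadjusted p under 0.05 by DESeq2 or edgeR. LRRC8D was at 74.5, 74.6 and 89.2 TPM in OVCAR4 ResA, overlapping OVCAR4. TPM and DESeq2 scaling parted in the OVCAR4 family: the median difference of all genes in log2 TPM was 0.39 in OVCAR4 ResA and 0.42 in OVCAR4 ResB, and about 0 in DESeq2. LRRC8A therefore had a log2 fold change of -0.27 in both lines by DESeq2 while its mean TPM was 22.01 ± 6.28 and 22.4 ± 5.43 against 18.05 ± 0.305 in OVCAR4, and no direction is given for it. LRRC8D in OVCAR4 ResA likewise had a log2 fold change of -0.38 ± 0.29 beside a mean TPM of 79.4 ± 8.44 against 72.6 ± 7.20. Without replicate 1, whose OVCAR4 ResA and ResB libraries held 9.23% and 13.1% mitochondrial rRNA against 2.02% to 2.47% in replicates 2 and 3 (OVCAR4 held 5.18%, 14.8% and 12.0%), LRRC8B and LRRC8C were called higher in both resistant lines with adjusted p-values of 0.00133 to 0.011 by DESeq2, and LRRC8D lower in OVCAR4 ResA with 0.0211.

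In PEO6 the 2 called genes, LRRC8A and LRRC8C, were both lower than in PEO1, where 41.4% of all genes were called, 21.2% higher and 20.3% lower. LRRC8C was at 2.13, 1.56 and 3.35 TPM in PEO1 and 0.474, 0.493 and 1.02 TPM in PEO6. The lines did not overlap, and the log2 fold change of -1.86 ± 0.32, 3.62-fold lower, had an adjusted p of 5.32e-08 by DESeq2 and was called under all 12 alternatives. LRRC8A was at 15.2, 11.4 and 21.2 TPM in PEO1 and 5.94, 6.61 and 15.5 TPM in PEO6, where the third library overlapped PEO1. Its log2 fold change was -0.88 ± 0.24 with an adjusted p of 0.00147 by DESeq2, and the call was lost without replicate 1 (0.0558), without replicate 2 (0.0676), with the mitochondrial rRNA covariate (0.461, all by DESeq2) and in both limma fits without a filter (0.0764 and 0.0934). LRRC8D was at 48.1, 46.3 and 47.8 TPM in PEO6, within the PEO1 range of 45.5 to 68.3 TPM, and was not called. The leukocyte markers summed to 26.8 to 32.0 TPM in PEO1 and 8.66 to 12.1 TPM in PEO6, the fibroblast markers to 1.05 to 1.93 and 0.601 to 0.713 TPM, and the epithelial sums (4514 to 6088 and 4253 to 5954 TPM) and endothelial sums (0.150 to 0.211 and 0.109 to 0.292 TPM) overlapped. Single epithelial markers did not move together. KRT7 was lower in PEO6, at 1385 ± 217.0 and 574.5 ± 172.9 TPM. MUC16 (27.0 ± 3.26 and 125.8 ± 24.2 TPM), WT1 (71.4 ± 26.9 and 125.5 ± 11.6 TPM) and KRT19 (859.3 ± 109.3 and 1116 ± 161.3 TPM) were higher, all without overlap. PAX8, EPCAM, KRT8 and KRT18 overlapped. The part of these markers in the result was not tested.

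PEO4 had no LRRC8 call, where 33.3% of all genes were called (16.6% higher, 16.7% lower), and no member had an unadjusted p under 0.05 by DESeq2 or edgeR. The 5 log2 fold changes lay between -0.31 ± 0.27 (LRRC8C) and 0.26 ± 0.17 (LRRC8B). LRRC8D was at 60.1, 60.9 and 58.3 TPM in PEO4 and 59.9, 45.5 and 68.3 TPM in PEO1.

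The ratio of LRRC8A to LRRC8D within a library does not depend on how libraries are scaled, and it is given as a description with no test. It was 0.227 ± 0.0215 in OVCAR3, 0.251 ± 0.0278 in OVCAR4, 0.281 ± 0.0712 in PEA1 and 0.271 ± 0.0338 in PEO1. In PEA2 the ratio was 1.23, 1.51 and 1.11, so that LRRC8A exceeded LRRC8D in each library, and the geometric mean was 4.62-fold that of PEA1. OVCAR3 ResA had a ratio of 0.521 ± 0.0746, OVCAR3 ResB of 0.334 ± 0.0811 and OVCAR4 ResB of 0.399 ± 0.0546, all without overlap with the sensitive line, although the lowest OVCAR3 ResB library (0.249) and the highest OVCAR3 library (0.245) nearly met. In OVCAR4 ResA (0.276 ± 0.0716), PEO4 (0.234 ± 0.0416) and PEO6 (0.197 ± 0.110) the ratio overlapped the sensitive line, and the third PEO6 library (0.324) stood away from the others (0.123 and 0.143).

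**Figure D4:**
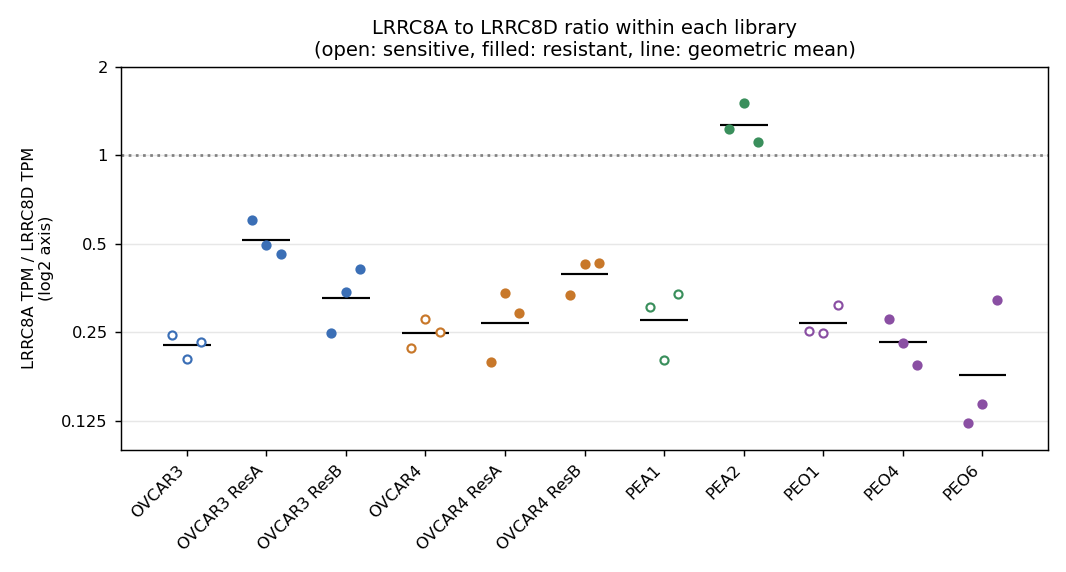
Ratio of LRRC8A TPM to LRRC8D TPM in each library (y axis, log2 scale) of the 11 lines (x axis), coloured by family, with open points for sensitive and filled points for resistant lines, a black line at the geometric mean of 3 libraries and a dotted line at a ratio of 1. The 3 PEA2 libraries (1.11 to 1.51) are the only ones above 1.

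Resistant lines of the same family were then compared with each other. Of 15 tests, 4 were called, 1 higher and 3 lower in the line named first. OVCAR4 ResB had less LRRC8D than OVCAR4 ResA, with a log2 fold change of -0.55 ± 0.09 and an adjusted p of 4.17e-08 by DESeq2 that was called under all 12 alternatives, and 32.8% of all genes were called in that comparison, 16.2% higher and 16.5% lower. LRRC8E was lower in OVCAR4 ResB too (log2 fold change -0.40 ± 0.14, adjusted p 0.0198 by DESeq2), but not without the replicate block (0.0662), without replicate 2 (0.505), without replicate 3 (0.267), with all 33 libraries in a single fit (0.0504) or in the limma fits on TPM without a filter (0.0837 and 0.0788), which left the call in 6 of 12 alternatives. LRRC8C was lower in PEO6 than in PEO4 (-1.55 ± 0.41, adjusted p 0.00207 by DESeq2, 18.2% of all genes called, 9.86% higher and 8.33% lower), which was lost without replicate 1 (0.143), without replicate 2 (0.31) and in all 3 limma fits on TPM (0.187 to 0.243) and kept in 7 of 12 alternatives. LRRC8C was higher in OVCAR3 ResB than in OVCAR3 ResA (1.39 ± 0.48, adjusted p 0.0307 by DESeq2, 13.5% of all genes called, 7.47% higher and 6.04% lower), which was lost without any 1 of the replicates (0.174 to 0.375), with edgeR (0.0887) and in the limma fits on TPM without a filter (0.435 and 0.402), and kept in 5 of 11.

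When each line was reduced to a single sum of its 3 replicates, with the family as a covariate, no member was called between the 7 resistant and the 4 sensitive lines by DESeq2 or edgeR, and 0.286% of all genes were. LRRC8D had a log2 fold change of -0.58 ± 0.25, an unadjusted p of 0.0189 and an adjusted p of 0.604 by DESeq2, and it was the 1 member of 5 with an unadjusted p under 0.05 by DESeq2, with 1 of 5 also by edgeR. The log2 fold changes of the others were 0.09 ± 0.33 for LRRC8A, 0.30 ± 0.25 for LRRC8B, -0.49 ± 0.44 for LRRC8C and 0.28 ± 0.22 for LRRC8E.

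A likelihood ratio test in DESeq2 asked whether the change with resistance differed between the 4 families. Its units were the 33 libraries, resistant lines of the same family were pooled, and PEA2 was the only resistant line of its family. A difference between families could therefore not be told apart from a difference between single lines. It called LRRC8A (adjusted p 8.11e-07) and LRRC8D (0.043), where 53.6% of all genes were called. LRRC8B (0.682), LRRC8C (0.145) and LRRC8E (0.229) were not called. The LRRC8D result was lost with edgeR (0.18), with TMM scaling and when any replicate was left out.

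The genes around each LRRC8 locus were counted to see whether the neighbourhood moved with the members. Taken were the 5 nearest annotated genes on each side that had a mean of at least 1 TPM, so genes below that level were passed over. The shares given beside the counts are of all tested genes, without that limit. Of the 10 genes taken around the LRRC8B, LRRC8C and LRRC8D cluster, which spanned 2.90 Mb, 6 were lower and 1 higher in OVCAR3 ResA, with a median log2 fold change of -0.67, where 22.9% of all genes were lower. In PEA2, 4 of the 10 were lower and 0 higher, with a median of -0.63, where 23.8% of all genes were lower. Between OVCAR3 ResB and OVCAR3 ResA, 5 of the 10 were higher and 0 lower with a median of 1.12, where 7.47% of all genes were higher. In OVCAR4 ResB, where LRRC8D was lower, 1 of the 10 was higher and 0 were lower (9.09% and 8.77% of all genes). In PEO6, 2 were higher and 0 lower (21.2% and 20.3%), and in PEO4, with no LRRC8 call, 5 were higher and 2 lower (16.6% and 16.7%). Also without an LRRC8 call, 3 were higher and 0 lower in OVCAR3 ResB (4.1% and 3.57%), and 3 higher and 1 lower in OVCAR4 ResA (6.68% and 5.22%).

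Of these 10 neighbours, 5 are the GBP genes, which encode interferon-inducible GTPases, and they were named with 2 other neighbours after their values were seen. In OVCAR3 ResA, 4 of the 5 GBP genes were lower, with log2 fold changes of -1.94 ± 0.16 for GBP1, -3.35 ± 0.21 for GBP2, -5.24 ± 0.36 for GBP4 and -2.47 ± 0.24 for GBP5, and GBP3 was the 1 that was higher (1.14 ± 0.20). Of the 5 other neighbours, 2 were lower, ZNF326 (-0.81 ± 0.14) and CDC7 (-0.53 ± 0.13), with a median of -0.36 over the 5. In PEA2, 3 GBP genes (GBP1, GBP3 and GBP4) and CDC7 were lower, and the median over the other neighbours was -0.06. Between OVCAR3 ResB and OVCAR3 ResA, 4 GBP genes (GBP1, GBP2, GBP4 and GBP5) and ZNF326 were higher. In PEO6, where LRRC8C was lower, 2 GBP genes were higher and 0 lower. In OVCAR4 ResB, where LRRC8D was lower, 1 was higher and 0 lower. Without an LRRC8 call, OVCAR3 ResB (4.1% of all genes higher, 3.57% lower) and OVCAR4 ResA (6.68% and 5.22%) each had 3 higher and 0 lower. PEO4, also without a call, had 3 higher and 1 lower (16.6% and 16.7%). Between OVCAR4 ResB and OVCAR4 ResA 0 were higher and 2 lower (16.2% and 16.5%), and between PEO6 and PEO4 2 were higher and 2 lower (9.86% and 8.33%).

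Around LRRC8A, 0 of 10 neighbours were higher and 1 was lower in PEA2, with a median of -0.02, where 23.3% and 23.8% of all genes were. In PEO6, where LRRC8A was lower, 3 were higher and 0 lower with a median of 0.57 (21.2% and 20.3% of all genes), and in PEO4, where it was not called, 6 were higher and 0 lower (16.6% and 16.7%). Around LRRC8E, 2 of 10 neighbours were higher and 2 lower in OVCAR3 ResA, where 22% and 22.9% of all genes were, and 0 were higher and 5 lower in OVCAR4 ResB against OVCAR4 ResA, where 16.2% and 16.5% of all genes were. KYAT1, the antisense neighbour of LRRC8A, had a log2 fold change of 0.68 ± 0.34 in PEA2 and was not called (adjusted p 0.0938 by DESeq2).

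The other genes of cell volume regulation were taken from a list of 34 genes in the tables, giving 238 tests in the 7 pairs. By DESeq2, 56 were higher, 35 lower and 20 had no adjusted p, and these 91 calls became 56, 60 and 57 in the limma fits on TPM. Of the 34 genes, 12 were higher and 7 lower in OVCAR3 ResA, where 22% and 22.9% of all genes were. The counts were 4 and 2 in OVCAR3 ResB (4.1% and 3.57% of all genes), 4 and 0 in OVCAR4 ResA (6.68% and 5.22%) and 3 and 2 in OVCAR4 ResB (9.09% and 8.77%). They were 13 and 6 in PEA2 (23.3% and 23.8%), 11 and 10 in PEO4 (16.6% and 16.7%), and 9 and 8 in PEO6 (21.2% and 20.3%). The median log2 fold change of the list ran from 0.00 in PEO6 to 0.46 in PEA2, where that of all tested genes ran from -0.02 to 0.02. The genes listed as other anion channels had 12 higher and 11 lower calls among 77 tests. CLNS1A was counted among them, with 0 higher and 2 lower calls. The cation-chloride cotransporters had 11 and 7 among 49, the kinases that control them 10 and 6 among 42, and the osmolyte genes 14 and 5 among 35. The potassium channels had 5 and 3 among 14 and the aquaporins 4 and 3 among 21. In single pairs the share of all genes called higher ran from 4.1% to 23.3%, and that called lower from 3.57% to 23.8%. No share of all genes was pooled over the 7 pairs, so the counts by role and the total are only a description.

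WNK3, a kinase that controls chloride cotransporters, had 4 higher calls and 1 lower call. It was at 1.48 ± 0.354 TPM in OVCAR3 and 2.46 ± 0.861 TPM in OVCAR3 ResA (log2 fold change 0.56 ± 0.18, adjusted p 0.00482 by DESeq2), and at 0.765 ± 0.317 TPM in OVCAR4 and 3.06 ± 1.14 TPM in OVCAR4 ResB (1.44 ± 0.41, 0.00492). It was at 0.186 ± 0.0463 TPM in PEO1, 0.426 ± 0.0586 TPM in PEO4 (1.26 ± 0.42, 0.00956) and 0.415 ± 0.0878 TPM in PEO6 (1.15 ± 0.47, 0.0377). In PEA2 it was lower, at 0.0159 ± 0.0145 TPM against 0.823 ± 0.335 TPM in PEA1 (-5.56 ± 0.71, 7.29e-14).

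SLC6A6, which takes up taurine, an osmolyte that leaves cells through VRAC, was singled out after its values were seen because it was the 1 gene of the list called in all 7 pairs. It was higher in OVCAR3 ResA (2.02 ± 0.484 to 8.94 ± 0.346 TPM, log2 fold change 2.18 ± 0.17, adjusted p 5.07e-34 by DESeq2), OVCAR3 ResB (6.92 ± 3.21 TPM), OVCAR4 ResA (4.84 ± 1.16 to 14.3 ± 2.15 TPM), OVCAR4 ResB (16.6 ± 4.32 TPM) and PEO4 (8.25 ± 1.04 to 15.7 ± 3.22 TPM). It was lower in PEA2 (20.4 ± 5.74 to 8.04 ± 1.86 TPM, -1.22 ± 0.26, 2.06e-05) and in PEO6 (4.64 ± 0.569 TPM, -0.78 ± 0.24, 0.00505).

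Genes of the cGAMP axis were read because LRRC8 channels can carry cGAMP between cells. CGAS (listed as MB21D1), which makes cGAMP, was at or below 0.122 TPM in all 9 libraries of the OVCAR3 family. It was at 2.15 ± 0.642 TPM in OVCAR4 and was called lower in OVCAR4 ResA (0.280 ± 0.407 TPM) and OVCAR4 ResB (0.0443 ± 0.0462 TPM). In PEA2 (36.0 ± 8.63 against 21.99 ± 1.69 TPM in PEA1, log2 fold change 0.80 ± 0.24, adjusted p 0.00293 by DESeq2) and in PEO4 (26.5 ± 2.94 against 9.42 ± 2.24 TPM in PEO1, 1.55 ± 0.20, 6.45e-13) it was higher. STING1 (listed as TMEM173), which senses cGAMP, was called higher in all 4 selected OVCAR lines, with log2 fold changes of 0.77 ± 0.18 to 1.92 ± 0.34, lower in PEA2 (-1.39 ± 0.29, adjusted p 1.09e-05 by DESeq2), and was not called in PEO4 or PEO6. Of the partners tied to cGAMP transport, LRRC8E was called higher in OVCAR3 ResA and LRRC8C was called lower in OVCAR3 ResA, PEA2 and PEO6. LRRC8E libraries also lay above those of the sensitive line, without a call, in OVCAR3 ResB (7.997 ± 2.22 against 4.60 ± 0.0847 TPM), OVCAR4 ResA (13.2 ± 2.27 against 6.63 ± 0.447 TPM) and OVCAR4 ResB (10.2 ± 1.60 TPM). Their log2 fold changes by DESeq2 were 0.67, 0.48 and 0.08. In both OVCAR4 lines the median of all genes was higher in TPM but not by DESeq2, as given above. In counts normalised by DESeq2, OVCAR4 ResA (624 to 702) lay above OVCAR4 (415 to 502), and OVCAR4 ResB (494 to 505) overlapped it. With all 33 libraries in a single fit OVCAR3 ResB and OVCAR4 ResA were called, with adjusted p-values of 0.000657 and 0.00903 by DESeq2. The test of a difference between families did not call LRRC8E, as given above, and LRRC8E was not called between OVCAR3 ResB and OVCAR3 ResA.

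The genes whose line means followed each subunit most closely were taken from 14207 genes with a mean of at least 1 TPM, over 11 line means of log2(TPM + 1), as a description. They were FEM1A (r = 0.945) and TALDO1 (0.935) for LRRC8A, LRRC58 (0.917) and NCOA7 (0.911) for LRRC8B, RBM14 (0.951) for LRRC8C, GTF2IRD2 (0.889) and ZSCAN5A (0.873) for LRRC8D, and STRN (0.949) and EIF1AX (0.928) for LRRC8E. Among the members themselves LRRC8B and LRRC8E were most alike (0.847), and the lowest value was that of LRRC8A with LRRC8D (-0.294). Lines of the same family share an origin, so the 11 points are not independent, and high values arise when so many genes are searched.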

How the data were processed

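Human HGSOC lines were profiled by mRNA sequencing. The study ran nf-core/rnaseq on GRCh38 and took gene sums from salmon. The authors deposited estimated counts per gene and library, not normalised, and TPM, which are scaled for gene length and library and carry no depth. Library totals ran from 18058985 to 43394009 counts (median 30611448). Counts from 33 libraries were rounded and tested in R 4.3.3 with DESeq2 1.42.0 (Wald test, replicate number and line as terms, no filter, adjusted p under 0.05), as in the study's methods, on the 6 libraries of each comparison. Alternatives were edgeR 4.0.16, TMM scaling, a filter (10 counts in 3 libraries), limma 3.58.1 on log2 TPM with pseudocounts of 1 and 0.1, no block, a mitochondrial rRNA covariate, a single fit over all libraries and leaving out each replicate. The fits of a pair with their alternatives were tested on simulated data, as were the DESeq2 and edgeR fits at line level and between families. There limma on log2(TPM + 1) without a filter made no correct call, and it is still counted among the alternatives. The single fit over all libraries was not simulated.

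Replicate numbers came from the labels, which do not say whether replicates were separate cultures, so p-values measure only the spread between these libraries, which may be technical. Same-numbered libraries deviated together (all 3 correlations above 0.1) in 2 of 10 comparisons, OVCAR3 ResA against OVCAR3 and OVCAR4 ResB against OVCAR4 ResA. Each library was nearest to one of its own line in 31 of 33 cases and of its own family in 33. Mitochondrial rRNA took 1.12% to 14.8% of counts. Sequences and coordinates came from RefSeq (GRCh38.p14), in which all 5 members were matched. The members, gene lists and tests were chosen with earlier results of these data known. Named were the 5 members in every comparison, list genes called in the same direction in at least 4 pairs and in fewer than 2 the other way, the 2 genes most like each member (1 of them is not reported here), and CGAS and STING1. SLC6A6, the GBP genes, ZNF326 and CDC7 were named outside this rule, after their values were seen. No columns of the authors' own comparisons were used.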

Additional observations from a re-analysis of the deposited data

Results flagged for a closer look

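For 2 members the change with resistance differed between the 4 families in the likelihood ratio test of DESeq2. That test took libraries as units and could not tell families apart from single lines. The adjusted p was 8.11e-07 for LRRC8A, which was called higher in PEA2 and lower in PEO6. It was 0.043 for LRRC8D, which was called lower in OVCAR3 ResA, OVCAR4 ResB and PEA2 and in no PEO line. Of all tested genes, 53.6% were called in this test. Groups of 3 libraries are too small to test for a single library that stands apart.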

How the results depend on the processing

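No called change of an LRRC8 gene reversed under any alternative. Of 598 comparisons of a gene's result under an alternative with its reported result, 533 kept their side of the threshold, 37 lost a call, 28 gained one and 36 uncalled changes turned sign. The 9 calls in the 7 pairs became 14 with all 33 libraries in a single fit, and 6 to 10 when a replicate was left out. The 4 calls between resistant lines became 8 with the mitochondrial rRNA covariate, 8 in the single fit, 1, 1 and 2 in the limma fits on TPM, and 1 to 4 when a replicate was left out. The 91 calls of the volume-regulation list became 56, 60 and 57 in the limma fits. The 2 calls for a difference between families became 1 with edgeR, 1 with TMM scaling and 1 without any of the replicates. No member was called at line level under any of the alternatives run, including leaving out each family. Without the replicate block there were 10 calls in the 7 pairs, 4 between resistant lines, 99 in the list and 2 for the interaction, and the block changed the call of LRRC8B in OVCAR3 ResB against OVCAR3 (0.0468 without it) and against OVCAR3 ResA (0.0151), and of LRRC8E in OVCAR4 ResB against OVCAR4 ResA (0.0662), all adjusted p-values by DESeq2. The cause of these shifts was not tested. Removing rRNA from the TPM sum moved 15 of 55 line levels by more than 1 SD. LRRC8C, at 51 to 762 counts, had the least depth.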
